A study of Bos taurus with 8 samples.

Results

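The genes described here transport vitamin A, make, bind or degrade its active form, retinoic acid, or respond to it: RBP4, STRA6, CRABP1, CRABP2, ALDH1A1, ALDH1A2, CYP26A1, RARB and RARRES1. They were chosen by name, as every non-control probe of the array whose gene name, or the symbol of its accession, was one of these 9. All 9 genes were on the array, with 26 of its 51282 probes, and all 9 had at least 1 probe bright enough to test (19 of the 26). In all, 17860 gene symbols were on the array and 13678 were tested.

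Messenger RNA was profiled on 8 one-colour Agilent bovine arrays, 4 hybridised with RNA of samples labelled pregnant and 4 with RNA of samples labelled non-pregnant, where the labels write yes or no for pregnancy. Both groups are labelled as female fetal cotyledon, that is, the fetal part of a ruminant's placentome, and no age, treatment or genotype is given. The labels name cattle as the species, but their protocol text says that gravid uteri of buffalo came from a slaughterhouse, so the probes are cattle sequence and the RNA is buffalo RNA as far as that text goes. Whether the replicates of a group are separate animals is not stated, and the p-values given here cover the spread among these samples alone, which may be technical.

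Vitamin A circulates as retinol bound to RBP4 and enters cells through the membrane receptor STRA6. Inside the cell retinol is oxidised to retinal and then, by the ALDH1A dehydrogenases, to retinoic acid, which CRABP1 and CRABP2 bind, CYP26A1 degrades, and nuclear receptors such as RARB read to switch genes on. In ruminants RBP4 is known as a secreted product of the uterine lining and of the conceptus.

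The tissue label was checked against marker genes. All 10 tested trophoblast markers were lower on the arrays labelled pregnant, where the array medians of the list were -4.92 to -2.64, against 4.03 to 4.70 on the arrays labelled non-pregnant. CDX2, PLAC1 and CYP19A1 were not well above background on any array labelled pregnant. Of 9 uterine markers, 8 were higher on the arrays labelled pregnant (list medians 1.71 to 3.19) than on the arrays labelled non-pregnant (-6.17 to -2.56), where ESR1, HOXD10 and DIO2 were not well above background on any array. These directions go against the group names, so each direction below refers to the labels. Other lists moved too. On the arrays labelled pregnant, 7 of 7 tested erythroid and 6 of 8 epithelial markers were lower. Higher there were 6 of 9 leukocyte, 5 of 8 stromal and 6 of 8 smooth muscle markers. The leukocyte list was split, with 2 markers lower, CSF1R (-1.93) and AIF1 (-3.09). Of 7 liver and yolk sac markers 4 were higher and 3 lower. Of 8 endothelial markers 2 were higher, 1 was lower and 5 were not called. Among all tested genes 30.0% were higher and 32.4% lower. The part of these marker lists in the results on the retinoid genes was not tested. In bulk tissue, fewer cells of a type and less RNA per cell cannot be told apart. Arrays correlated at 0.943 to 0.989 within the group labelled pregnant, 0.957 to 0.987 within the group labelled non-pregnant and 0.736 to 0.783 between groups. Labelled pregnant array 4 stood apart, at 0.943 to 0.951 with its own group against at least 0.977 among the other 3, and results that rest on it are given with and without it. Spot intensity at the 75th percentile ran between 798 and 1347 on the arrays labelled pregnant and between 1168 and 1797 on the arrays labelled non-pregnant.

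Of the 9 retinoid genes, 5 were higher on the arrays labelled pregnant, none was lower and 4 were not called (limma, Benjamini-Hochberg adjusted p below 0.05 over all tested probes). Called higher were the retinal dehydrogenases ALDH1A1 and ALDH1A2, the retinoic acid binding proteins CRABP1 and CRABP2, and RARRES1. The carrier RBP4, the receptor STRA6, the degrading enzyme CYP26A1 and the nuclear receptor RARB were not called. This contrast moved much of the transcriptome: 62.4% of tested genes were called in either direction, 30.0% higher and 32.4% lower. The median difference of the 9 genes was 1.96, against -0.01 over all tested genes. Levels below are log2 of the processed signal minus the 75th percentile of its array, arrays are listed as 1 to 4 within a group, and a difference is the mean of the arrays labelled pregnant minus that of the arrays labelled non-pregnant on that scale (n = 4 each, except for RDH11, which had 3 values on the arrays labelled non-pregnant). Levels of different probes are not comparable with each other, since probes differ in how well they bind.

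**Figure D1:**
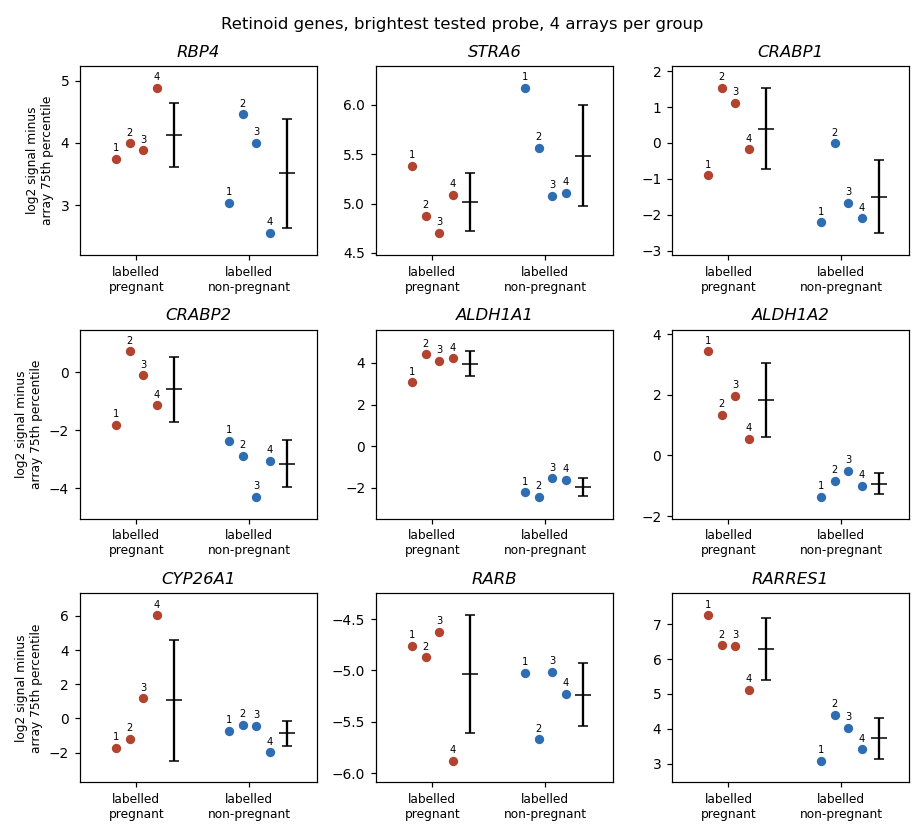
Level of each retinoid gene on each array (brightest tested probe), as log2 signal minus the array's 75th percentile, with arrays numbered 1 to 4 within a group and the black bar giving mean ± SD of 4 arrays. The groups do not overlap for CRABP2, ALDH1A1, ALDH1A2 and RARRES1, and for CYP26A1 labelled pregnant array 4 lies at 6.04 while the other 7 arrays lie at 1.18 or below.

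RBP4, the blood carrier of retinol, did not differ beyond the spread between arrays. Its brighter probe read 3.74, 3.99, 3.88 and 4.88 on the arrays labelled pregnant, against 3.04, 4.46, 4.0 and 2.55 on the arrays labelled non-pregnant. The groups overlap, and the single highest value is that of labelled pregnant array 4. The difference was 0.61 (SE 0.44, adjusted p = 0.257). The RBP4 gene lies on chromosome 26 of Btau_3.1, the build named in the file headers, and this probe, from transcript base 910, matches the minus strand at chr26:15393349-15393408. Part of it is shown because it holds ATTAAA (capitals), a variant of the signal at which transcripts are cut and polyadenylated.
RBP4, base 910: agactttgacttATTAAAatatgtatagtt
On the probe strand, ATTAAA was in 3.33% and the common form AATAAA in 8.35% of all probes. The other RBP4 probe lies upstream, at transcript base 438 (chr26:15395370-15395429), and is shown whole because it measures the same gene at another site.
RBP4, base 438: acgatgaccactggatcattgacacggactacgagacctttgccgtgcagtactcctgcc
It read -2.33, -1.31, -1.36 and -0.65 on the arrays labelled pregnant, against -2.53, -0.20, -1.59 and -2.04 on the arrays labelled non-pregnant (difference 0.18, SE 0.53, adjusted p = 0.787). The groups overlap here as well, and labelled non-pregnant array 2 was the highest of its group with both probes.

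STRA6, the membrane receptor that takes up retinol from RBP4, gave different answers from different probes. The brightest, at transcript base 2914 (chr21:34584674-34584732, plus strand), read 5.38, 4.87, 4.70 and 5.09 on the arrays labelled pregnant, against 6.17, 5.56, 5.08 and 5.11 on the arrays labelled non-pregnant. The groups overlap, and labelled non-pregnant array 1 is the highest. The difference was -0.47 (SE 0.28, adjusted p = 0.181). A second probe at transcript base 2916 covers nearly the same stretch of the transcript. Over the 57 bases that the pair share they differ by G35A and T50A, counted from 1 at the 5′ end of the brighter probe, whose base is given first. Both stretches are shown with the differing bases in capitals.
STRA6, base 2914: aggttaGtgtgctctctgtaaTaaacttgt
STRA6, base 2916: aggttaAtgtgctctctgtaaAaaacttgt
The second difference falls in AATAAA, which the brighter probe holds and the other does not. The probe at base 2916 gave nearly the same difference, -0.47 (SE 0.32, adjusted p = 0.234), with 3.96 to 4.73 on the arrays labelled pregnant, against 4.25 to 5.50 on the arrays labelled non-pregnant. Another probe, at transcript base 2458 (chr21:34584218-34584277), read 0.83 to 1.53 on the arrays labelled pregnant, against 1.19 to 1.51 on the arrays labelled non-pregnant (difference -0.18, SE 0.20, adjusted p = 0.469). None of these 3 probes was called, where 59.4% of all tested probes were called in either direction.

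A STRA6 probe far upstream was called lower. It lies at transcript base 737 (chr21:34569558-34569617) and is shown because it alone among the 4 tested STRA6 probes separated the groups.
STRA6, base 737: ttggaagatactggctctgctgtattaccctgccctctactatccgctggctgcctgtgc
It read -2.78, -2.99, -3.31 and -3.23 on the arrays labelled pregnant, against -1.73, -1.61, -1.81 and -1.55 on the arrays labelled non-pregnant. The groups do not overlap, and the spread within each (SD 0.24 and 0.12) was small beside the difference of -1.41 (SE 0.18, adjusted p = 0.000202). The probe furthest upstream, at transcript base 142, was not well above background on any array and was not tested. No probe of the 9 genes shared a run of 20 bases with a probe of another gene.

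**Figure D2:**
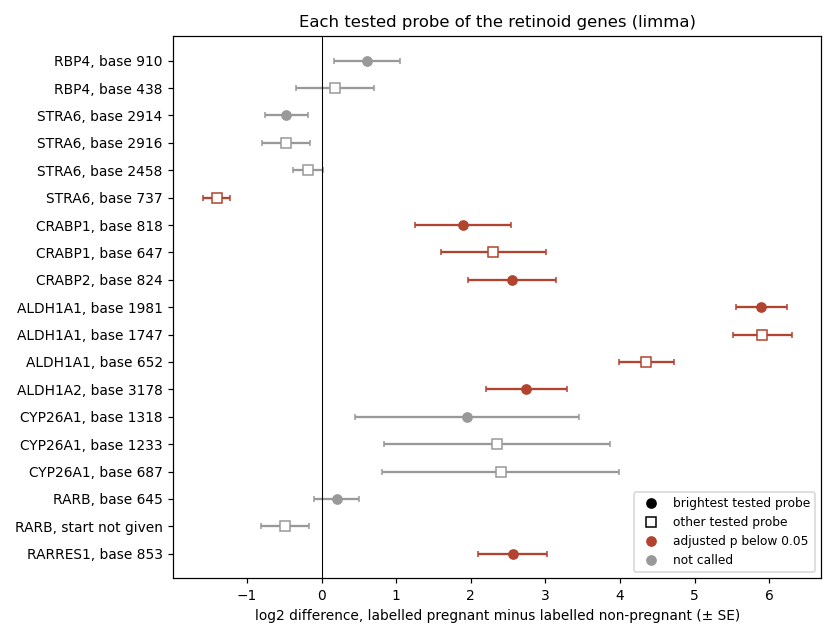
Log2 difference of each tested probe of the retinoid genes (arrays labelled pregnant minus arrays labelled non-pregnant), with bars of ± 1 SE from limma (n = 4 arrays per group). Of the 19 probes, 8 were called higher, 1 lower (STRA6, base 737) and 10 were not called. Filled circles are the brightest tested probe of a gene, open squares its other tested probes, and bases are positions in the target transcript.

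CRABP1 and CRABP2 hold retinoic acid in the cytoplasm, CRABP2 being known to hand it to nuclear receptors. The brighter CRABP1 probe (transcript base 818, chr21:30797440-30797499) read -0.90, 1.54, 1.11 and -0.18 on the arrays labelled pregnant, against -2.21, -0.02, -1.67 and -2.10 on the arrays labelled non-pregnant. Labelled non-pregnant array 2 lies above labelled pregnant arrays 1 and 4, so the groups overlap. The gene was called higher at 1.89 (SE 0.64, adjusted p = 0.0308). That call was the least secure of the 5: it was lost with median scaling (1.51, adjusted p = 0.0661), without scaling (1.41, adjusted p = 0.112) and without any 1 of 5 arrays, labelled pregnant array 2 or 3 or labelled non-pregnant array 1, 3 or 4, where adjusted p lay between 0.0668 and 0.0802. Over 19 alternatives the difference ran between 1.41 and 2.39 and adjusted p between 0.00279 and 0.112. The second CRABP1 probe (transcript base 647) is shown because it reads across an intron, its 60 bases matching ends that lie 3740 bases apart on the chromosome (chr21:30793589-30797328).
CRABP1, base 647: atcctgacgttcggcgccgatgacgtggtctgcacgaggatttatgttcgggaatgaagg
It read -2.37, 0.27, -0.10 and -1.46 on the arrays labelled pregnant, against -4.12, -1.57, -3.38 and -3.82 on the arrays labelled non-pregnant (difference 2.30, SE 0.71, adjusted p = 0.0197). Both probes put the 8 arrays in the same order, except that labelled pregnant array 4 and labelled non-pregnant array 2 changed places.

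CRABP2 was higher with its 1 tested probe (transcript base 824, chr3:15551944-15552003). Its last 30 bases are shown because the call rests on this probe.
CRABP2, base 824: aggaaagacgggccctctgtcttccattct
It read -1.81, 0.71, -0.12 and -1.15 on the arrays labelled pregnant, against -2.38, -2.87, -4.29 and -3.06 on the arrays labelled non-pregnant. The groups do not overlap, though the gap is narrow: labelled pregnant array 1 is the lowest of its group and labelled non-pregnant array 1 the highest of its own. The difference was 2.56 (SE 0.59, adjusted p = 0.00491), a 5.88-fold difference in signal. Its other 2 probes were not well above background on any array. Within the group labelled pregnant, arrays 2 and 3 were above arrays 1 and 4 for both CRABP genes. Their changes differed by -0.66 (CRABP1 minus CRABP2; SE 0.66; exact permutation test over the 8 arrays, two-sided, p = 0.371, adjusted over 4 such pairs 0.495), where 0.0286 is the smallest p that 4 against 4 arrays allow.

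ALDH1A1 and ALDH1A2 make retinoic acid from retinal, and ALDH1A1 showed by far the largest difference of the 9 genes. Its brightest probe (transcript base 1981, chr8:51403797-51403856, minus strand) read 3.07, 4.40, 4.10 and 4.22 on the arrays labelled pregnant, against -2.21, -2.43, -1.53 and -1.61 on the arrays labelled non-pregnant. All 4 arrays labelled pregnant lie far above all 4 labelled non-pregnant. It averaged 3.95 ± 0.60 on the arrays labelled pregnant and -1.95 ± 0.44 on the arrays labelled non-pregnant (SD, n = 4 each), a 59.4-fold difference in signal (log2 5.89, SE 0.34, adjusted p = 1.91e-06). A difference at least this large in size was seen for 2.90% of tested genes. The last 30 bases of that probe and the whole of the probe at transcript base 652 are shown. The second reads across a splice site, matching ends 1400 bases apart (chr8:51425577-51426976).
ALDH1A1, base 1981: cctgaaatacttagatgtaacctaaacata
ALDH1A1, base 652: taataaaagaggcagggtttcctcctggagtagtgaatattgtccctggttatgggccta
The probe at base 652 read -3.09, -1.73, -2.01 and -1.61 on the arrays labelled pregnant, against -6.23, -6.95, -6.73 and -5.93 on the arrays labelled non-pregnant, only 1 of which was well above background. Its difference was 4.35 (SE 0.37, adjusted p = 1.45e-05). Another probe, at transcript base 1747 (chr8:51404031-51404090), differed by 5.90 (SE 0.40, adjusted p = 4.10e-06). With all 3 probes, labelled pregnant array 1 was the lowest of its group.

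ALDH1A2, the main retinoic acid producing enzyme of the mammalian embryo, was also higher. Its tested probe (transcript base 3178) lies on the unplaced scaffold 004.515, at 26542 to 26601 on the minus strand. This probe got its gene name through a second identifier listed for it, not through that of its target transcript. Its last 30 bases are shown because the call rests on it.
ALDH1A2, base 3178: ctaaccagctagttaccttgaactgcaata
It read 3.43, 1.33, 1.96 and 0.55 on the arrays labelled pregnant, against -1.36, -0.82, -0.51 and -1.01 on the arrays labelled non-pregnant. The groups do not overlap, and the arrays labelled pregnant spread more widely (SD 1.22) than those labelled non-pregnant (SD 0.36). The difference was 2.74 (SE 0.54, adjusted p = 0.00221), 6.70-fold in signal. Of its 3 other probes, 1 was well above background on no array and 2 on 2 or 3 of the 8 arrays, so they were not tested. The probe at transcript base 378 (the same scaffold, 88512 to 88571), well above background on 2 arrays labelled pregnant and 1 labelled non-pregnant, is shown as a second site in the gene.
ALDH1A2, base 378: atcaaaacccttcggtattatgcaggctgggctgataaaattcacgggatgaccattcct
It read -3.97, -6.46, -5.41 and -6.91 on the arrays labelled pregnant, against -5.88, -6.73, -6.27 and -8.63 on the arrays labelled non-pregnant. Both probes put the arrays labelled pregnant in the same order, with array 1 the highest and array 4 the lowest. ALDH1A1 differed by 3.15 more than ALDH1A2 (SE 0.91; exact permutation test, two-sided, p = 0.0286, the smallest possible; adjusted over 4 pairs 0.114).

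CYP26A1, the enzyme that clears retinoic acid and a gene that retinoic acid itself is known to induce, varied most from array to array. Its brightest probe (transcript base 1318, chr26:14904302-14904361, plus strand) read -1.73, -1.19, 1.18 and 6.04 on the arrays labelled pregnant, against -0.72, -0.38, -0.43 and -1.98 on the arrays labelled non-pregnant. Labelled pregnant array 4 is far above every other array, array 3 is next, and arrays 1 and 2 lie among or below the arrays labelled non-pregnant. The difference of 1.96 had an SE of 1.5 and was not called (adjusted p = 0.286). Without labelled pregnant array 4 it was 0.30 (adjusted p = 0.731), and over 19 alternatives adjusted p ran between 0.133 and 0.731. Both other probes gave the same picture, and the one at transcript base 687 is shown because it reads across a splice site, matching ends 540 bases apart (chr26:14902326-14902865).
CYP26A1, base 687: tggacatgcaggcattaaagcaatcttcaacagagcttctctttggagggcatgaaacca
It read -4.47, -4.45, -2.23 and 3.64 on the arrays labelled pregnant, against -4.44, -3.89, -4.35 and -4.43 on the arrays labelled non-pregnant (difference 2.40, SE 1.59, adjusted p = 0.218). The probe at transcript base 1233 (chr26:14904217-14904276) read -1.97, -2.04, 0.37 and 5.61 on the arrays labelled pregnant, against -2.69 to -1.28 on the arrays labelled non-pregnant (difference 2.35, SE 1.51, adjusted p = 0.207). With all 3 probes, array 4 was the highest and array 3 the second highest of the group labelled pregnant. The changes of ALDH1A2 and CYP26A1 differed by 0.79 (SE 2.29; exact permutation test, two-sided, p = 0.743, the same after adjustment over 4 pairs).

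The spread of CYP26A1 stood far out among all genes. Its SD over the arrays labelled pregnant was 3.54, against a median of 0.31 over all tested genes, and 7 of 13671 genes with a value on each array, CYP26A1 included, had one at least as large. Labelled pregnant array 4 exceeded the mean of the other 3 by 6.62, and 8 genes, itself included, did so by at least as much. Among the other retinoid pathway genes, 2 were singled out after their values were seen. SDR16C5, a retinol dehydrogenase, read -5.10, -3.89, -4.04 and 2.58 on the arrays labelled pregnant, against -5.56, -5.96, -7.75 and -7.13 on the arrays labelled non-pregnant. Its excess on array 4 was 6.93, reached by 4 genes with itself included. DHRS3, a retinal reductase that turns retinal back into retinol, read 1.42, 1.59, 1.57 and 4.05 on the arrays labelled pregnant, against 1.22, 1.75, 1.75 and 2.03 on the arrays labelled non-pregnant. With the brightest tested probe of each gene, array 4 is thus the highest of all 8 for CYP26A1, SDR16C5, DHRS3 and RBP4. The excess of DHRS3 (2.52) was reached by 336 genes and that of RBP4 (1.01) by 1403, each with itself included. Array 4 was also the highest of all 8 for pathway genes outside this selection, such as CYP1A1 and CYP27C1. It was the lowest of its group for others, such as ALDH1A3 and RARG. With the other RBP4 probe, labelled non-pregnant array 2 was higher (-0.20) than labelled pregnant array 4 (-0.65). Labelled pregnant array 4 is the lowest of its group for ALDH1A2 (by 1.69 below the mean of the other 3), RARRES1 (1.56) and RARB (1.12). Whether array 4 differs in tissue or in technique was not tested.

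**Figure D3:**
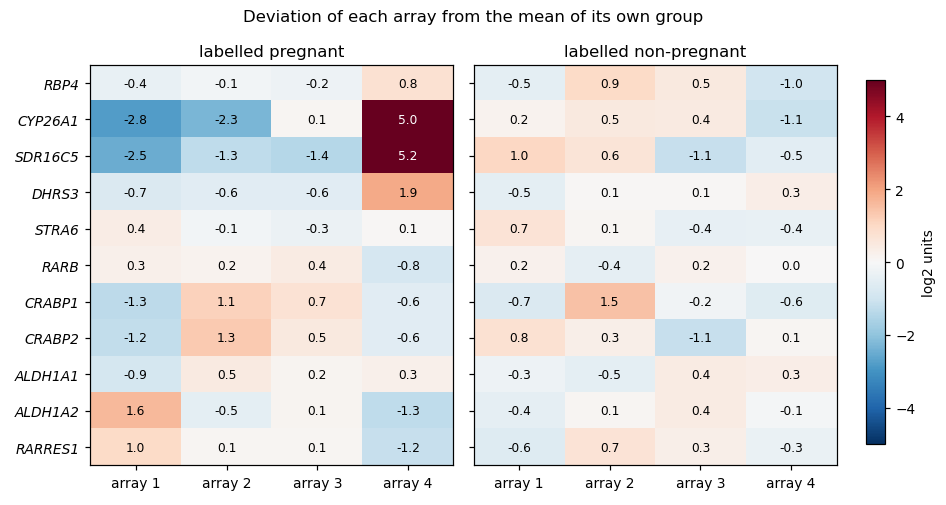
Deviation of each array from the mean of its own group, in log2 units (red above, blue below the mean; the number is in each cell), for the 9 retinoid genes and for SDR16C5 and DHRS3, which were added after their values were seen. Labelled pregnant array 4 is high for CYP26A1, SDR16C5, DHRS3 and RBP4 and low for ALDH1A2 and RARRES1.

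RARB, a nuclear receptor for retinoic acid and in many cell types one of its direct targets, was near background. Its probe from transcript base 645 (unplaced scaffold 004.1737, 12597 to 12656) passed the background test on 3 arrays labelled pregnant and on all 4 labelled non-pregnant. It read -4.76, -4.87, -4.62 and -5.88 on the arrays labelled pregnant, against -5.02, -5.67, -5.02 and -5.23 on the arrays labelled non-pregnant. The groups overlap, and the lowest value is again labelled pregnant array 4. The difference was 0.20 (SE 0.31, adjusted p = 0.592), and its sign turned under median scaling (-0.19), without scaling (-0.28), with quantile normalization (-0.28) and with the mean over both tested probes (-0.14), none of them called. A second RARB probe, well above background on no array labelled pregnant and on all 4 labelled non-pregnant, differed by -0.49 (SE 0.32, adjusted p = 0.216). Its remaining probe was well above background on 1 array and was not tested.

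RARRES1 encodes a membrane protein first found through its induction by a receptor-selective retinoid in human skin. Its only probe (transcript base 853, chr1:110702272-110702331, plus strand) was bright on all 8 arrays, and its last 30 bases are shown because the call rests on it.
RARRES1, base 853: aaagcaagaaaaacctgtctataccacatt
It read 7.26, 6.40, 6.39 and 5.12 on the arrays labelled pregnant, against 3.08, 4.40, 4.02 and 3.41 on the arrays labelled non-pregnant. The groups do not overlap. The difference was 2.56 (SE 0.46, adjusted p = 0.00130), 5.91-fold in signal. The 5 called genes thus differed by 1.89 to 5.89. The groups did not overlap for 4 of the 9 genes, all 4 of them called, against 59.8% of all tested genes in either direction. The changes of STRA6 and RBP4 differed by -1.09 (SE 0.60; exact permutation test, two-sided, p = 0.143, adjusted over 4 pairs 0.286).

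Profiles of the 9 genes were compared over all 8 arrays, so each distance takes in the difference between the groups as well as the spread within them. After each profile was centred on its own mean over the 8 arrays, the closest of the 36 pairs was ALDH1A2 with RARRES1, at a root mean square distance of 0.40 log2 units, followed by RARB with STRA6 (0.65) and CRABP1 with CRABP2 (0.87). The furthest was ALDH1A1 with STRA6 (3.27). The search was then widened to all tested genes, leaving out those named only by a LOC number. The closest profile to ALDH1A2 was that of COL13A1, which encodes a transmembrane collagen (0.23), and then HOXA9, a homeobox transcription factor (0.34). ALDH1A1 was closest to CHRDL1, an antagonist of bone morphogenetic proteins (0.37), and to PRRT1 (0.41). RARRES1 was closest to NCAN, a proteoglycan (0.23), and ZNF711, a zinc finger protein (0.25). CRABP1 was closest to TRIM40 (0.48) and the integrin subunit ITGA8 (0.50), and CRABP2 to SYTL3 (0.51) and the endocytic receptor LY75 (0.55). CYP26A1 was closest to the defensin DEFB7 (0.44) and the neural adhesion molecule NRCAM (0.74). For the genes with small differences, RBP4 was closest to OLFML2B (0.33) and MMP23 (0.33), STRA6 to ACOT13 (0.16) and AMT (0.16), and RARB to ALKBH3 (0.15) and C24H18orf54 (0.17). All distances are over the same 8 arrays and describe the profiles only.

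The rest of the pathway was called in both directions, as were all tested genes (30.0% higher and 32.4% lower). Of 10 tested genes of retinoid uptake, storage and binding, 5 were higher, 4 lower and 1 not called, with a median difference of 0.02. LRAT, which esterifies retinol for storage, was the highest. It read -0.60, -0.47, 0.16 and 0.65 on the arrays labelled pregnant, against -5.30, -7.37, -6.10 and -7.03 on the arrays labelled non-pregnant, only 1 of which was well above background (difference 6.39, SE 0.48, adjusted p = 7.14e-06; 4.03 with normexp background correction). The cellular retinol binding protein RBP7 was higher by 3.42 (SE 0.63; 1.56 with normexp). CD36, a scavenger receptor for lipids, was lower (difference -6.40, SE 0.47, above background on 3 of 4 arrays labelled pregnant). FABP5, a fatty acid binding protein that also binds retinoic acid, was lower (difference -5.72, SE 0.36) with all 3 of its tested probes. Further genes of this list, named here outside the rule, differed less. RBP2, a cellular retinol binding protein of the gut, was higher (2.93, SE 0.26; 1.86 with normexp), and RBP3, which carries retinoids in the eye, was lower (-1.84, SE 0.49; -1.17 with normexp). TTR, the partner of RBP4 in blood, was called higher at 0.71 (SE 0.19), a call lost with median scaling (0.32), without scaling (0.23) and with quantile normalization (0.21). DGAT1, which can also esterify retinol, was called lower (-0.68, SE 0.25, adjusted p = 0.0423) but not under most alternatives. SCARB1, a receptor for lipoproteins and carotenoids, was not called (-0.96, SE 0.42) but was called lower under 5 of 19 alternatives, among them median scaling (-1.34) and no scaling (-1.44).

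**Figure D4:**
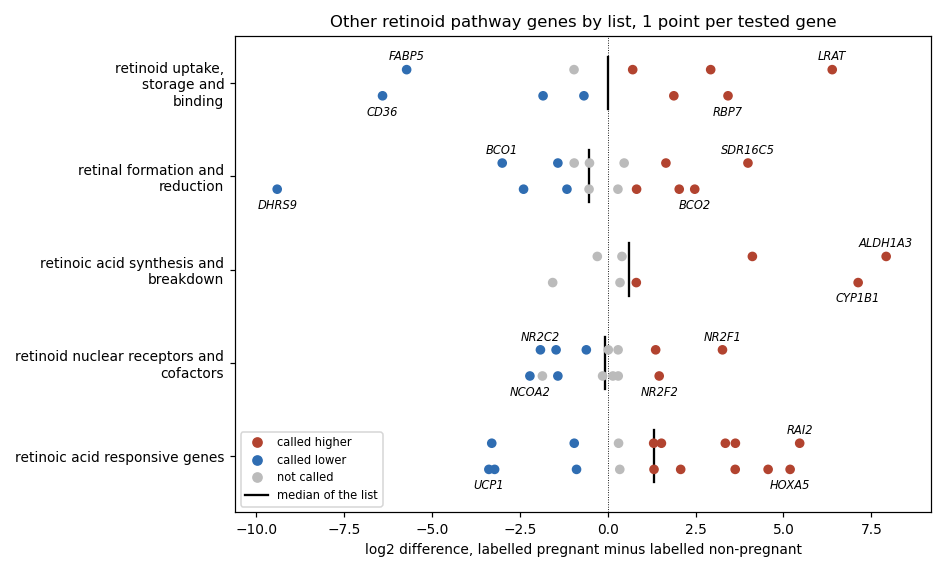
Log2 difference of each other tested retinoid pathway gene (arrays labelled pregnant minus arrays labelled non-pregnant) by list; red points were called higher, blue lower and grey not called, the black line is the list median (0.02, -0.52, 0.61, -0.06 and 1.32 from top to bottom), and the vertical offset within a list only separates points. Names mark called genes at the low and high ends of a list. ALDH1A3, CYP1B1 and UCP1, and the unnamed points of RDH16 and CDX1, are drawn at their measured difference although 1 group was below background.

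Among 15 tested genes that form retinal or reduce it, 5 were higher, 5 lower and 5 not called (median -0.52). DHRS9, a dehydrogenase acting on retinol and steroids, was lower with both tested probes. It read -5.49, -4.28, -4.96 and -5.19 on the arrays labelled pregnant, against 3.92, 3.96, 4.94 and 4.86 on the arrays labelled non-pregnant (difference -9.40, SE 0.35, adjusted p = 2.27e-07). RDH10, the retinol dehydrogenase needed for retinoic acid in the mouse embryo, was higher by 1.66 (SE 0.29, adjusted p = 0.00101), with groups that do not overlap. The carotenoid-cleaving enzymes moved apart: BCO2 was higher by 2.48 (SE 0.35), while BCO1 was lower (difference -3.00, SE 0.60, above background on 1 of 4 arrays labelled pregnant). With normexp background correction the BCO1 difference was -0.76 (adjusted p = 0.0461). SDR16C5 was called higher at 3.99 (SE 1.51, adjusted p = 0.0467). This call was lost under 11 of 18 alternatives, while without labelled pregnant array 4 the difference was 2.26 (adjusted p = 0.00846), and adjusted p ran between 0.00846 and 0.107. DHRS3 was not called (0.47, SE 0.56, adjusted p = 0.493), and it was -0.16 without labelled pregnant array 4. Named outside the rule, RDH5 (2.03, SE 0.24) and the alcohol dehydrogenase ADH5 (0.82, SE 0.18) were also called higher, ADH5 not with median scaling (0.44) or without scaling (0.34). The retinol or retinal dehydrogenases RDH11 (-1.42, SE 0.24) and RDH14 (-1.16, SE 0.19) were called lower. RDH16 was 4.63-fold lower, with no array labelled pregnant above background and dim arrays set as for ALDH1A3 below. With normexp background correction its difference was -0.36 and not called.

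Among 8 other tested genes of retinoic acid synthesis and breakdown, 4 were higher, none lower and 4 not called (median 0.61). ALDH1A3, another retinal dehydrogenase of the family, read 0.73, -0.03, 0.24 and -1.32 on the arrays labelled pregnant and was not well above background on any array labelled non-pregnant. With the dim arrays set as given below, it was 238-fold higher (limma, adjusted p = 4.26e-06). CYP1B1, a cytochrome that can also oxidise retinoids, was 114-fold higher with the same gap in detection (adjusted p = 1.18e-07). On the arrays labelled non-pregnant both genes read at background, so these p-values do not measure a spread of expression there. These folds hold for the processed signal alone. With normexp background correction the log2 differences were 4.26 for ALDH1A3 and 3.37 for CYP1B1, both still called. For such a fold, each dim array counted at the lowest signal of any probe well above background there. Where the probe's own signal was more, that was used. Other probes failed the background test at higher signals. ESR1 did at -5.99 on labelled non-pregnant array 3 and CDX1 at -5.64 on labelled pregnant array 1. These folds are therefore not lower bounds. CYP26B1, a close relative of CYP26A1, was not well above background on any array, and CYP26C1 was not called (-0.30, SE 0.21), though it was called lower with median scaling (-0.68), without scaling (-0.78) and with quantile normalization (-0.74). Named outside the rule, CYP27C1, a retinol desaturase in zebrafish and human, was higher (4.11, SE 0.74), and the oxidase AOX1 was called higher at 0.81 (SE 0.26) but not with median scaling (0.43), without scaling (0.33), or without labelled pregnant array 3 or labelled non-pregnant array 2 or 3 (adjusted p between 0.0501 and 0.0544). CYP1A1, another cytochrome of the list, was not called over all arrays (-1.57, SE 1.09) and was called lower without labelled pregnant array 4 (-2.76, adjusted p = 0.00210). All 3 ALDH1A genes were thus called higher on the arrays labelled pregnant, against 30.0% of all tested genes. Of the 3 CYP26 genes, 2 were not called with the 75th percentile scaling and 1 was not tested. Not called does not mean unchanged, since CYP26A1 differed by 1.96 (SE 1.5). Its change was not told apart from that of ALDH1A2 (exact permutation test, p = 0.743).

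Of 14 tested retinoid receptors and cofactors, 3 were higher, 5 lower and 6 not called (median -0.06). The orphan receptors NR2F1 and NR2F2, which bind retinoid response elements, were higher by 3.26 (SE 0.32) and 1.46 (SE 0.25). RARG, a retinoic acid receptor, read 0.68, 0.74, 0.80 and 0.24 on the arrays labelled pregnant, against -1.52, -1.04, -0.16 and -0.27 on the arrays labelled non-pregnant (difference 1.36, SE 0.32, adjusted p = 0.00571). It was called with 1 of its 2 tested probes. RARA was not called (0.30, SE 0.28, adjusted p = 0.375). Its partner RXRA was lower (difference -0.61, SE 0.17, adjusted p = 0.0121) in non-overlapping groups, a call that was lost with normexp background correction (-0.21, adjusted p = 0.256) and with the percentile over detected probes (-0.44, adjusted p = 0.0555). The coactivator NCOA2 was lower with all 5 tested probes (difference -2.21, SE 0.21), and the receptor NR2C2 with 2 of 4 (difference -1.91, SE 0.23; -0.70 for the mean over its probes). Also lower, and named outside the rule, were its relative NR2C1 (-1.42, SE 0.18; -0.47 with normexp) and PPARD (-1.47, SE 0.20), a nuclear receptor for fatty acids.

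Of 17 tested genes listed as responsive to retinoic acid in mammals, 10 were higher, 5 lower and 2 not called, with a median difference of 1.32. Of all tested genes 30.0% were higher and 32.4% lower, with a median of -0.01. RAI2 was higher by 5.46 (SE 0.49; 2.89 with normexp), with 1 of 4 arrays labelled non-pregnant above background. HOXA5, a homeobox gene of body patterning, read 0.95, 0.27, 0.73 and 0.81 on the arrays labelled pregnant, against -4.63, -3.94, -4.53 and -4.90 on the arrays labelled non-pregnant (difference 5.19, SE 0.25, adjusted p = 8.08e-07). HOX genes also differ between tissues along the body, and the uterine markers above include other HOX genes, which were higher too. The other tested HOX genes of this list were higher as well. Whether the HOXA5 difference goes with tissue was not tested. UCP1, the uncoupling protein of brown fat, was 7.87-fold lower with dim arrays set as for ALDH1A3, being well above background on no array labelled pregnant. Also lower, and named outside the rule, were the homeobox gene CDX1, the laminin subunit LAMB1 (-0.89, SE 0.26) and RAI14 (-0.95, SE 0.24). CDX1 was 9.30-fold lower, set in the same way, with no array labelled pregnant above background. With normexp background correction the log2 differences of UCP1 and CDX1 were -0.65 (adjusted p = 0.0277) and -1.34. LAMB1 was not called with quantile normalization (-0.33) and RAI14 was not with normexp background correction (-0.11). Over the 5 lists, genes with dim arrays set in this way left each median unchanged.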

How the data were processed

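RNA of 8 samples, 4 labelled pregnant and 4 labelled non-pregnant, was hybridised to one-colour bovine arrays on 1 slide in 1 scan; each group fills 1 slide row, so row and group cannot be told apart. The authors deposited scanner intensity per spot, which per the file headers comes from Agilent Feature Extraction 11.5.1.1 (protocol GE1_1105_Oct12), background-subtracted and not scaled between arrays. The flags deposited beside them mark each spot as well above background, saturated or outlying. A log2 table deposited by the authors served as an alternative. Set against the scanner files array by array, its columns gave r of at least 0.999 and a 75th percentile near 0, with no centring per probe; no source used here states how it was made. Its column medians were -3.56, -3.61, -3.64 and -3.61 for the arrays labelled pregnant 1 to 4, and -4.21, -4.01, -4.00 and -3.77 for those labelled non-pregnant.

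Here log2 of the processed intensity minus each array's 75th percentile was taken. The 1319 control spots of each array and 119 outlier spots were left out, none was saturated, and spots of 1 probe were averaged. Tested were 34630 probes, those well above background on 4 or more arrays, using limma 3.58.1 in R 4.3.3 (lmFit, eBayes, no covariates; Benjamini-Hochberg, threshold 0.05), after tests on simulated data. A gene is its tested probe with the highest mean over all 8 arrays. Unequal change of 4 pairs of genes was tested by exact permutation.

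Names came from the files and a table of cattle genes (assembly ARS-UCD2.0), from which only names were taken. Accessions matched for 28112 probes, other accessions for 1770, the file's symbol for 5520, a synonym for 149 and a gene number in the file's description, as for RARB, for 1490. For 14229 the name in the file stayed, and 12 matched several genes. Coordinates are those of the files (Btau_3.1); exon, intron or untranslated region is not given there. Sequences are the array's probes, and promoters were not analysed here.

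The genes and the lists were chosen with earlier results of these data known. Named are all 9 genes, up to 4 called genes of each list (the 2 largest differences in each direction), 9 pathway genes set by name, and the 2 closest profiles per gene; 2 of these genes are counted in their lists and not reported here; genes outside this rule were named, after their values were seen, to account for counts of 5 or fewer. Replicate numbers did not pair the samples: deviations from the group means of same-numbered arrays correlated at 0.01, 0.08, 0.05 and 0.15. Alternatives were the background correction, 4 scalings, the deposited log2 values, 2 filters on dim probes, the mean over probes, leaving out arrays, and a replicate block. The number of arrays limits the precision.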

Additional observations from a re-analysis of the deposited data

Results flagged for a closer look

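In 1 of the 38 groups of 4 arrays screened for a lone array (each tested probe of the 9 genes in each group), 1 value stood apart. The CYP26A1 probe at transcript base 687 read -3.89 on labelled non-pregnant array 2, above -4.44 to -4.35 on the other 3 arrays of that group. Its gap to the next value was 0.839 of the group's range, over Dixon's critical value for 4 values. Chance alone marks about 1 in 20 such groups.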

How the results depend on the processing

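The number of retinoid genes called higher was 4 or 5 under all 19 alternatives. ALDH1A1, ALDH1A2, CRABP2 and RARRES1 kept their call in each of the 19, with differences of 5.38 to 6.19, 2.21 to 3.30, 2.07 to 2.96 and 2.08 to 3.05. RBP4 was never called (0.13 to 1.1, lowest adjusted p 0.0504 with quantile normalization). STRA6 was called lower, making 1 such gene, without scaling (-0.95, adjusted p = 0.0200) and with the mean over its probes (-0.63, adjusted p = 0.0308), while quantile normalization gave 0.11 (adjusted p range 0.0200 to 0.696). The difference of ALDH1A2 minus CYP26A1 turned to -0.68 without replicate 1 of the group labelled pregnant, and over the alternatives that left out 1 array it ran between -0.68 and 2.87; it was not called in any. Requiring detection on all 8 arrays left 3 genes higher in uptake, storage and binding, 2 lower in retinal formation, 2 higher in synthesis and breakdown and 2 lower among responsive genes, since fewer genes were then tested. Median scaling and no scaling each left 3 genes higher in retinal formation. In synthesis and breakdown, 1 gene was lower under median scaling, no scaling and quantile normalization (CYP26C1) and without labelled pregnant array 4 together with labelled non-pregnant array 3 (CYP1A1). With single arrays left out that count was between 0 and 1 (1 without labelled pregnant array 4). Without the dim filter 5 receptors and cofactors were higher. RARA was called without those 2 arrays (0.67, adjusted p = 0.0211), and RARG lost its call without scaling (0.88, adjusted p = 0.0785). CRABP1 also lost it without those 2 arrays (adjusted p = 0.0693). The cause of these changes was otherwise not tested. Scaling moved the whole comparison: the median over all genes became -0.40 (median scaling), -0.50 (no scaling) and 0.15 (percentile over detected probes), and 2649 genes were higher without scaling against 4098. Without the dim filter, over 17860 genes, that median was 0.25. Of called genes 48.0% were higher, against 35.1% with median scaling and 31.8% without scaling. With the replicate block 5 retinoid genes were higher (CRABP1 adjusted p = 0.00279), 3997 of all genes were higher and 4287 lower, and among the genes named SDR16C5 (adjusted p = 0.0604) and DGAT1 lost their call and SCARB1 gained one; no other call of theirs changed. Dim probes (RARB, 3 of ALDH1A2 and 2 of CRABP2) limit what could be seen.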
